A study of Homo sapiens with 4 samples.

Results

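The nuclear genes for the mitochondrial respiratory chain and ATP synthase were examined in AGS cells, a line established from a human gastric adenocarcinoma. Members were the rows of the deposited gene table whose name began with NDUFA, NDUFB, NDUFC, NDUFS, NDUFV, UQCR, COX4I, COX5, COX6, COX7, COX8 or ATP5, together with SDHA, SDHB, SDHC, SDHD and CYC1, without NDUFAF names (assembly factors) and without pseudogene names ending in P and a number. This gave 92 of 47251 genes, of which 42 belonged to complex I, 4 to complex II, 10 to complex III, 17 to complex IV and 19 to complex V. In the sh-MFAP2 group AGS cells carried 1 lentiviral short hairpin RNA (shRNA) against MFAP2 (replicates 1 and 2), and in the control group they carried a scrambled shRNA (replicates 1 and 2). Both groups were stably transduced and selected with puromycin, and the series asks what loss of MFAP2, a microfibril-associated protein, does to expression in these cells. The group has 1 hairpin only, so that effects of this hairpin other than on MFAP2 cannot be told apart from effects of MFAP2.

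The tables carry no unit, and the values behave as FPKM, fragments scaled by transcript length and library depth. A gene value was the sum of its transcripts weighted by length over 1 gene length, and can therefore lie below the level of a gene's short coding transcript. From the size of the steps between low values, 54900000 to 75100000 reads per library were inferred, and the values of the members tested rested on about 44 reads (COX8A) to 54500 reads (ATP5B), with a median of 5620. MFAP2 itself had a listed value of 0 in either sh-MFAP2 library and of 0.0116 and 0.0138 FPKM in the controls, so the labels could not be checked by the targeted gene. The 6 epithelial markers listed for the line had a mean above 1 FPKM (KRT8 at 690 to 803 FPKM). The labels do not say that the replicates were separate cultures, and p-values then measure only the spread between these libraries, which may be technical. In bulk RNA, fewer cells of a kind and less RNA per cell cannot be told apart.

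Complex I passes electrons from NADH to ubiquinone, complex II feeds in electrons from succinate, complex III hands them to cytochrome c, complex IV reduces oxygen, and complex V (ATP synthase) uses the proton gradient that results. Most of the subunits are encoded in the nucleus and have to be matched to a small set encoded by mitochondrial DNA. The factors known for acting at the promoters of these nuclear genes are NRF1, GABP (the protein also called NRF2) and YY1.

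To show how the letters that these factors recognise are placed in the genes described here, the RefSeq promoter windows (GRCh38.p14, 250 bases before to 50 bases after the start site) were searched on both strands for GCGCA, any base, then GCGC (NRF1), CCGGAAG (GABP) and AAGATGGC (YY1). The promoter was matched for 62 of the 76 tested members that are subunits. Among the unmatched were ATP5B, ATP5D, ATP5G3, ATP5J2, COX6C, CYC1, NDUFA4, NDUFB5, NDUFB9, NDUFC2, NDUFS5, SDHC and UQCRB. The NRF1 letters stood in 15 of the 62 (24.2%, against 6.28% of 27305 promoters), the GABP letters in 19 (30.6%, against 10.7%) and the YY1 letters in 11 (17.7%, against 3.03%). At least 1 of the 3 was found in 36 members and more than 1 in 9, and no match overlapped a match of another motif. The 27305 promoters, 1 for each gene symbol, were not filtered by level, whereas the 62 members had a mean of at least 1 FPKM. A match is a run of letters and not a measured binding site. The following windows of 30 bases are shown for complex II, whose 4 subunits are all nuclear, for 3 subunits of complexes III and IV with GABP letters that are described with values, and for ATP5J, whose gene lies head to head with GABPA, the DNA-binding subunit of GABP. The matched letters are in capitals, each window is read 5′ to 3′ on the strand of its gene, and ATP5J was chosen after the values were seen.
SDHA, NRF1 letters (chr5:218144-218173, plus strand): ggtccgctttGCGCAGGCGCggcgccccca
SDHB, GABP letters (chr1:17054142-17054171, minus strand): cacccgggaaaCCGGAAGccgcctcccact
SDHD, NRF1 letters (chr11:112086753-112086782, plus strand): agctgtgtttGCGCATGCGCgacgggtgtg
SDHD, GABP letters (chr11:112086785-112086814, plus strand): ccgcctctcgaCTTCCGGttcacccagcat
UQCRH, GABP letters (chr1:46303641-46303670, plus strand): agtgtgccgcaCTTCCGGccagatcgccgg
UQCRQ, GABP letters (chr5:132866577-132866606, plus strand): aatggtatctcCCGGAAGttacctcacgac
COX5B, GABP letters (chr2:97646014-97646043, plus strand): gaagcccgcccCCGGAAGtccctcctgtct
ATP5J, GABP letters (chr21:25735066-25735095, minus strand): tgccaggggacCCGGAAGcacttaccctcc
ATP5J, YY1 letters (chr21:25735093-25735122, minus strand): taggcgaagaaAAGATGGCggaggctgtgc

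Of the 92 members, 79 reached an average of 1 FPKM in the 4 libraries and were tested with limma on log2(FPKM + 1) among 9873 genes (38, 4, 10, 11 and 16 members of complexes I to V). The remaining 13 fell below, the nearest being ATP5S at a mean of 0.805 and NDUFC2-KCTD14 at 0.598 FPKM, and the lowest members above were UQCRHL at 1.34 and COX8A at 2.38 FPKM. No member was called as a differentially expressed gene (DEG) at p under 0.01 and adjusted p under 0.05 in either direction, while 0.273% of the genes tested were called (27 genes, 0.152% higher and 0.122% lower in sh-MFAP2). At an unadjusted p under 0.05 in limma there was 1 member higher in sh-MFAP2 (NDUFA7), where the share of all genes was 3.89%, and 0 lower, where it was 8.41%. The groups did not overlap for 10 members that were higher (among them NDUFA7, NDUFA8, NDUFB8, NDUFS7, NDUFV3, COX6A1, COX6B1, ATP5D and ATP5G2) and for 6 that were lower (NDUFA12, NDUFB2, NDUFS1, SDHC, ATP5B and ATP5SL) in sh-MFAP2. Among all genes tested these shares were 17.5% and 31.4%. NDUFA8, NDUFA12, NDUFB2, NDUFB8 and NDUFV3 are named here after their values were seen. For 63 of the 79 the groups overlapped. All these counts are of gene values. Transcripts could overlap where the gene value did not, as for NDUFS1, NDUFS7 and ATP5G2 (below) and for NDUFB2, NDUFV3 and ATP5SL. The highest transcripts of NDUFA12, NDUFB8, COX6A1, COX6B1, ATP5B and ATP5D did not overlap between the groups.

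The sizes were small. The log2 fold change (sh-MFAP2 minus control) was under 1.5-fold for 77 of the 79, NDUFA7 and COX7A2L being the exceptions, and was smaller than its own standard error for 51, with a median standard error of 0.189. Its median was 0.11 over all members tested, 0.14 in complex I, −0.11 in complex II, 0.06 in complex III, 0.11 in complex IV and 0.10 in complex V, beside −0.05 over all genes tested. A positive value was found for 55 members and a negative one for 24 (42% of all genes were positive). The median of all members is within the spread between libraries, since the pooled SD of the library medians was 0.160. By complex, from I to V, this SD was 0.17, 0.09, 0.13, 0.26 and 0.11, and only the median of complex II was larger in size than it.

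**Figure D1:**
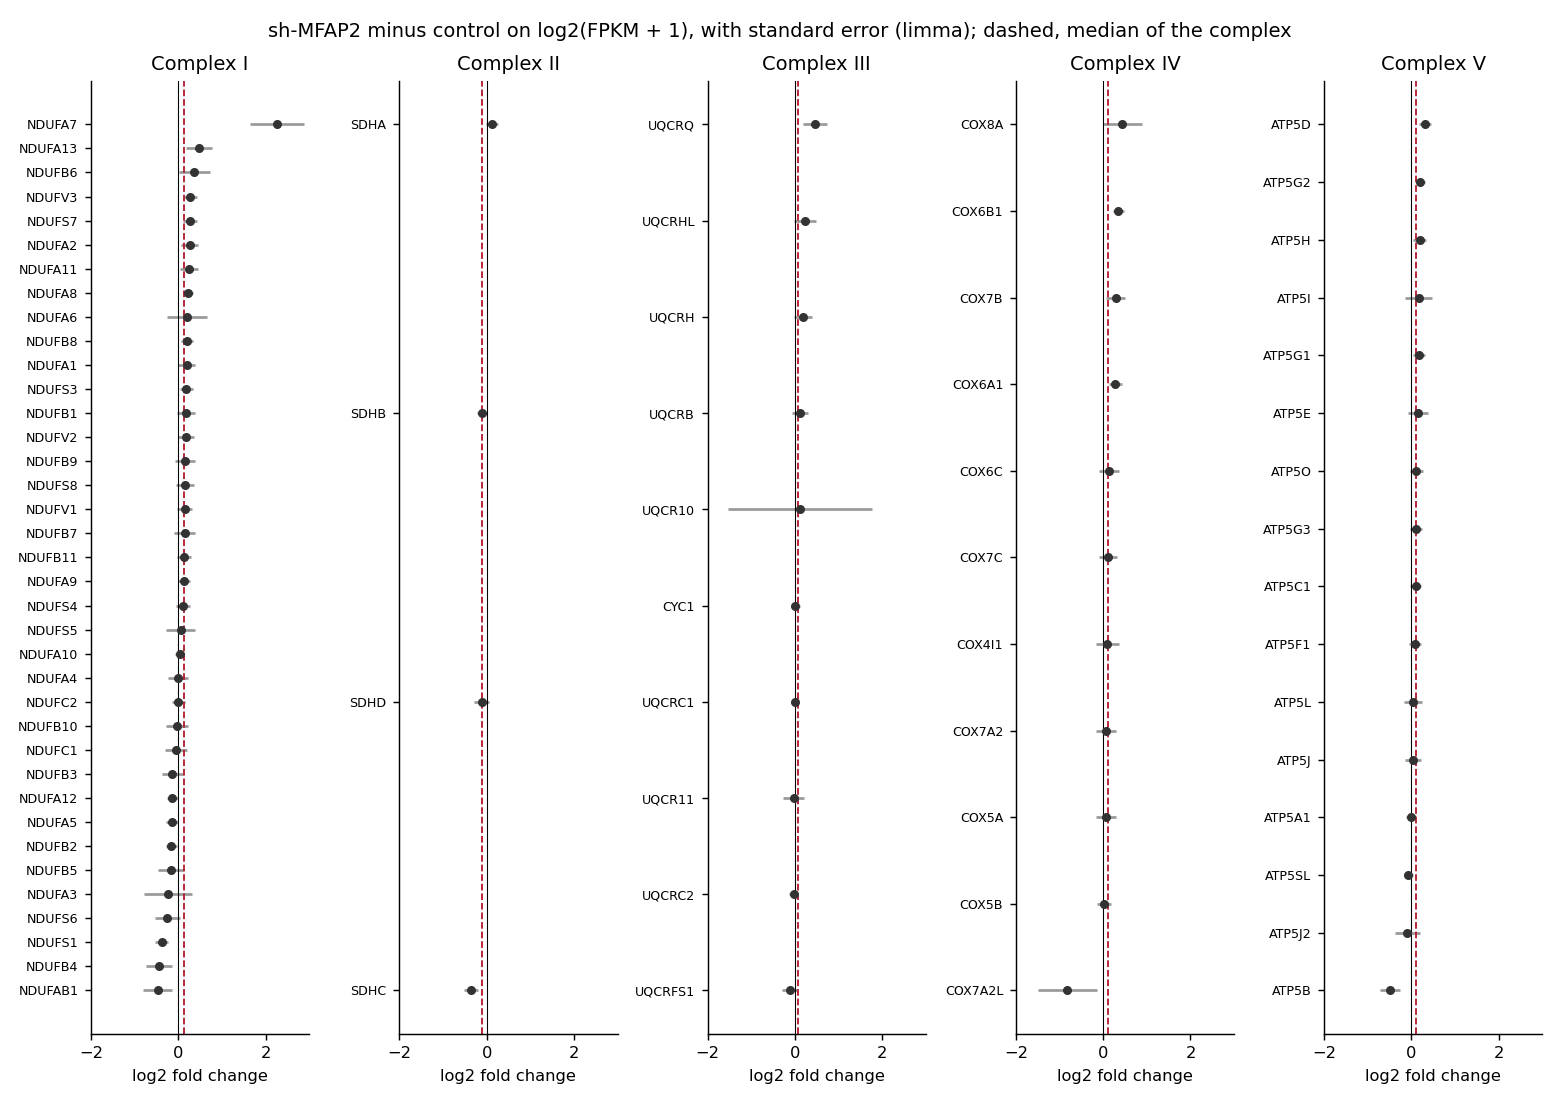
Log2 fold change of the members tested (x axis, sh-MFAP2 minus control on log2(FPKM + 1); points, limma estimate; bars, standard error), with 1 panel for each complex and members sorted by value. The dashed red lines mark the medians of the complexes, which lie between −0.11 in complex II and 0.14 in complex I, and NDUFA7 at 2.27 and COX7A2L at −0.82 stand farthest from them.

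The library sh-MFAP2 replicate 2 stood apart for these genes. It was the highest library for 55 of the 79 members, whereas it was the highest for 23.9% of all genes. The lowest library was sh-MFAP2 replicate 1 for 32 of the 79 members and for 38% of all genes. It was control replicate 2 for 29 of the 79 members and for 19.9% of all genes. In sh-MFAP2 replicate 2, 57 members lay above both controls (33.6% of all genes did), and in sh-MFAP2 replicate 1, 15 lay above both and 36 below both (30.7% and 49.5% of all genes). Replicate 2 of sh-MFAP2 was the highest for 25 of 38 members of complex I, 8 of 10 of complex III, 9 of 11 of complex IV and 13 of 16 of complex V. It was so for 0 of 4 of complex II, which are too few to set against the 23.9% of all genes.

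In median the members differed more between the pair of sh-MFAP2 libraries than between the groups. The median difference of sh-MFAP2 replicate 2 over replicate 1 was 0.324 on the log2 scale, with 66 of 79 positive, against 0.0433 and 56% for all genes, while the control libraries differed by a median of −0.0913 (replicate 2 minus replicate 1). Set against the mean of the controls, sh-MFAP2 replicate 1 had a median of −0.0321 (34 of 79 positive) and sh-MFAP2 replicate 2 had a median of 0.257 (63 of 79 positive). The positive sign of the median of the members therefore rests on 1 library, since without sh-MFAP2 replicate 2 the median was −0.03 instead of 0.11. The median of all genes in that fit was −0.07. The median of the members was 0.26 without sh-MFAP2 replicate 1, 0.15 without control replicate 1 and 0.05 without control replicate 2. That of all genes was −0.03, −0.06 and −0.06 in these fits.

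**Figure D2:**
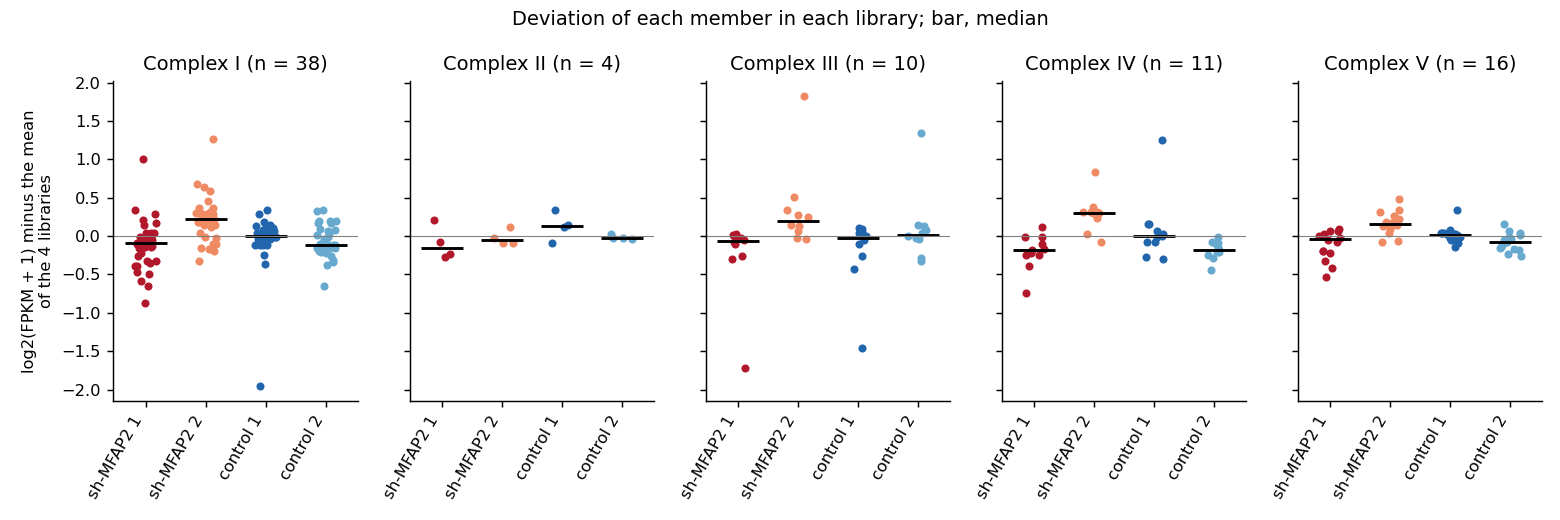
Deviation of each member tested from its own mean over the 4 libraries (y axis, log2(FPKM + 1); points, members; black bars, medians), with 1 panel for each complex and 1 column for each library. In complexes I, III, IV and V the median is highest in sh-MFAP2 replicate 2 (0.221, 0.198, 0.307 and 0.164), and in complex II it is highest in control replicate 1 (0.131).

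The members are short genes, and the gene length implied by the tables went along with the fold change over all genes. The median length was 2326 bases for the members tested and 4754 bases for all genes tested. With all genes divided by length into 5 classes of equal size, the median log2 fold change from the shortest to the longest class was 0.09, −0.003, −0.06, −0.10 and −0.16, and the median difference of sh-MFAP2 replicate 2 over replicate 1 was 0.136, 0.0455, 0.0267, 0.0183 and 0.0122. Of the 79 members, 46 lay in the shortest class, where their median fold change was 0.11. In the longer classes, with 12, 9, 4 and 8 members, it was 0.13, 0.10, 0.18 and 0.01. With a smooth trend on length taken out, the median of the members was 0.04, with 48 positive and 31 negative, beside 0.0007 over all genes. By complex, from I to V, the median was then 0.05, −0.16, 0.02, 0.11 and 0.10. Scaling by median of ratios, without a correction for length, gave a higher median of 0.18. There 61 members were positive and 18 negative, and the median of all genes was 0.006. The part of length in the level of sh-MFAP2 replicate 2 was not tested further.

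**Figure D3:**
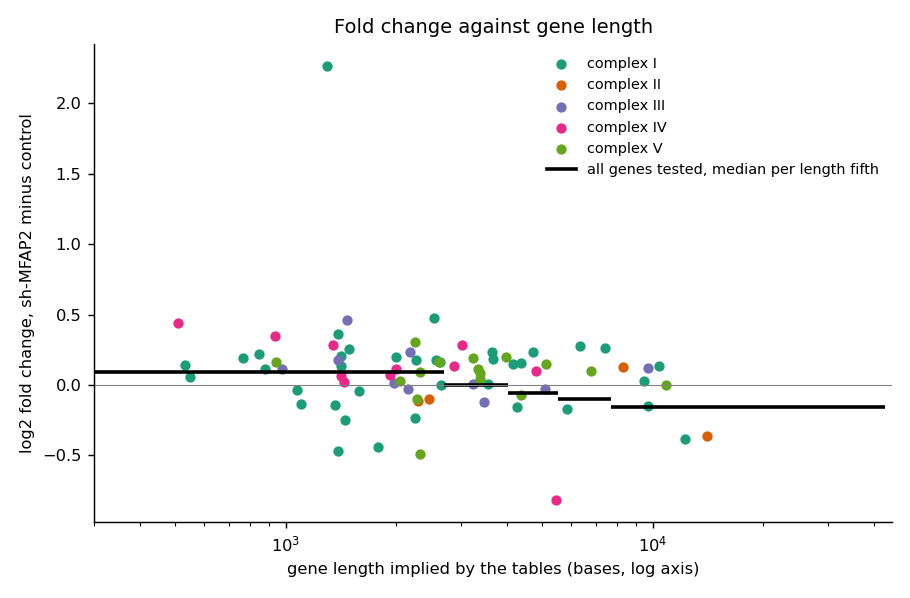
Log2 fold change (y axis, sh-MFAP2 minus control) against the gene length implied by the tables (x axis, bases, log scale) for the 79 members, coloured by complex. Black bars are the medians of all genes tested in each of 5 classes of length, which pass from 0.09 in the shortest to −0.16 in the longest.

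Complex I, the entry point for NADH, had 38 members tested, with means of 2.59 to 315.6 FPKM (median 26.5). The highest was NDUFS5, an accessory subunit with a gene length of 548 bases, at 234.7 and 422.2 FPKM under sh-MFAP2, against 317.8 and 287.6 FPKM in the controls. Both controls lay between the sh-MFAP2 libraries. Summed over the 38, the values were 1252 and 1752 FPKM under sh-MFAP2, against 1432 and 1368 FPKM in the controls, again with the sh-MFAP2 libraries at both ends.

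NDUFA7, an accessory subunit of the matrix arm (ENSG00000267855, chromosome 19, 8308768 to 8321396 on the minus strand, GRCh38), had the largest difference of the members. It was at 20.2 and 24.5 FPKM in replicates 1 and 2 of sh-MFAP2, against 1.73 and 7.55 FPKM in replicates 1 and 2 of the control. The sh-MFAP2 values lay above those of the controls, and the controls differed among themselves by more than the sh-MFAP2 libraries did. The log2 fold change was 2.27 ± 0.615 (SE, limma) with an unadjusted p of 0.0234 and an adjusted p of 0.374, and ranged from 1.44 to 3.09 when each library was left out. The sole coding transcript with a value, ENST00000301457 (601 bases), was at 43.5 and 52.6 FPKM under sh-MFAP2, against 3.73 and 16.1 FPKM in the controls. RPS28, which lies on the opposite strand there and is far more abundant, was at 153.6 to 209.4 FPKM. Its transcript ENST00000600659 shares 0 exonic bases with ENST00000301457 in GENCODE 29, and other transcripts of either gene were not compared. Whether the counting used strand is not given in the sources used here.

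The core subunits of complex I that the nucleus encodes carry its flavin and iron-sulfur clusters and lead to the ubiquinone site. NDUFS1, which holds several of these clusters, was at 8.38 and 6.73 FPKM under sh-MFAP2, against 10.1 FPKM in both controls. Both sh-MFAP2 values were below both controls, with a log2 fold change of −0.38 ± 0.140 (SE) and an adjusted p of 0.411 in limma. Its transcript ENST00000233190 overlapped between the groups, at 8.08 and 6.44 FPKM under sh-MFAP2, against 9.68 and 7.17 FPKM in the controls. NDUFS7, which carries the last cluster of the chain, was at 8.0 and 6.31 FPKM against 6.15 and 5.39 FPKM. These gene values did not overlap either, with a log2 fold change of 0.26 ± 0.158. Its transcript ENST00000233627 did overlap, at 30.8 and 2.43 FPKM under sh-MFAP2, against 31.5 and 12.1 FPKM in the controls.

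NDUFS3, NDUFS8, NDUFV1 and NDUFV2 overlapped between the groups. NDUFV1, the subunit that binds NADH, was at 20.4 and 23.5 FPKM under sh-MFAP2, against 17.4 and 22.2 FPKM in the controls. Its partner NDUFV2 was at 49.9 and 67.1 FPKM against 52.4 and 49.9 FPKM, high in sh-MFAP2 replicate 2 alone. NDUFS3 and NDUFS8 were likewise highest in that library, with log2 fold changes of 0.18 ± 0.143 and 0.16 ± 0.198. None of the core subunits described here differed by more than 1.5-fold.

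Among the other accessory subunits, NDUFA13 (GRIM-19) was at 25.1 and 41.2 FPKM under sh-MFAP2, against 25.3 and 20.6 FPKM in the controls. The difference of 0.48 ± 0.290 came from sh-MFAP2 replicate 2, since replicate 1 lay between the controls. NDUFAB1, the mitochondrial acyl carrier protein, was at 35.4 and 63.9 FPKM against 61.8 and 71.1 FPKM, with sh-MFAP2 replicate 1 below the other libraries and a log2 fold change of −0.47 ± 0.328. Without sh-MFAP2 replicate 1 the latter was −0.05. NDUFA4, now assigned to complex IV although its name is of complex I, was at 38.4 and 55.5 FPKM against 49.9 and 42.5 FPKM, where the controls lay between the sh-MFAP2 libraries.

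**Figure D4:**
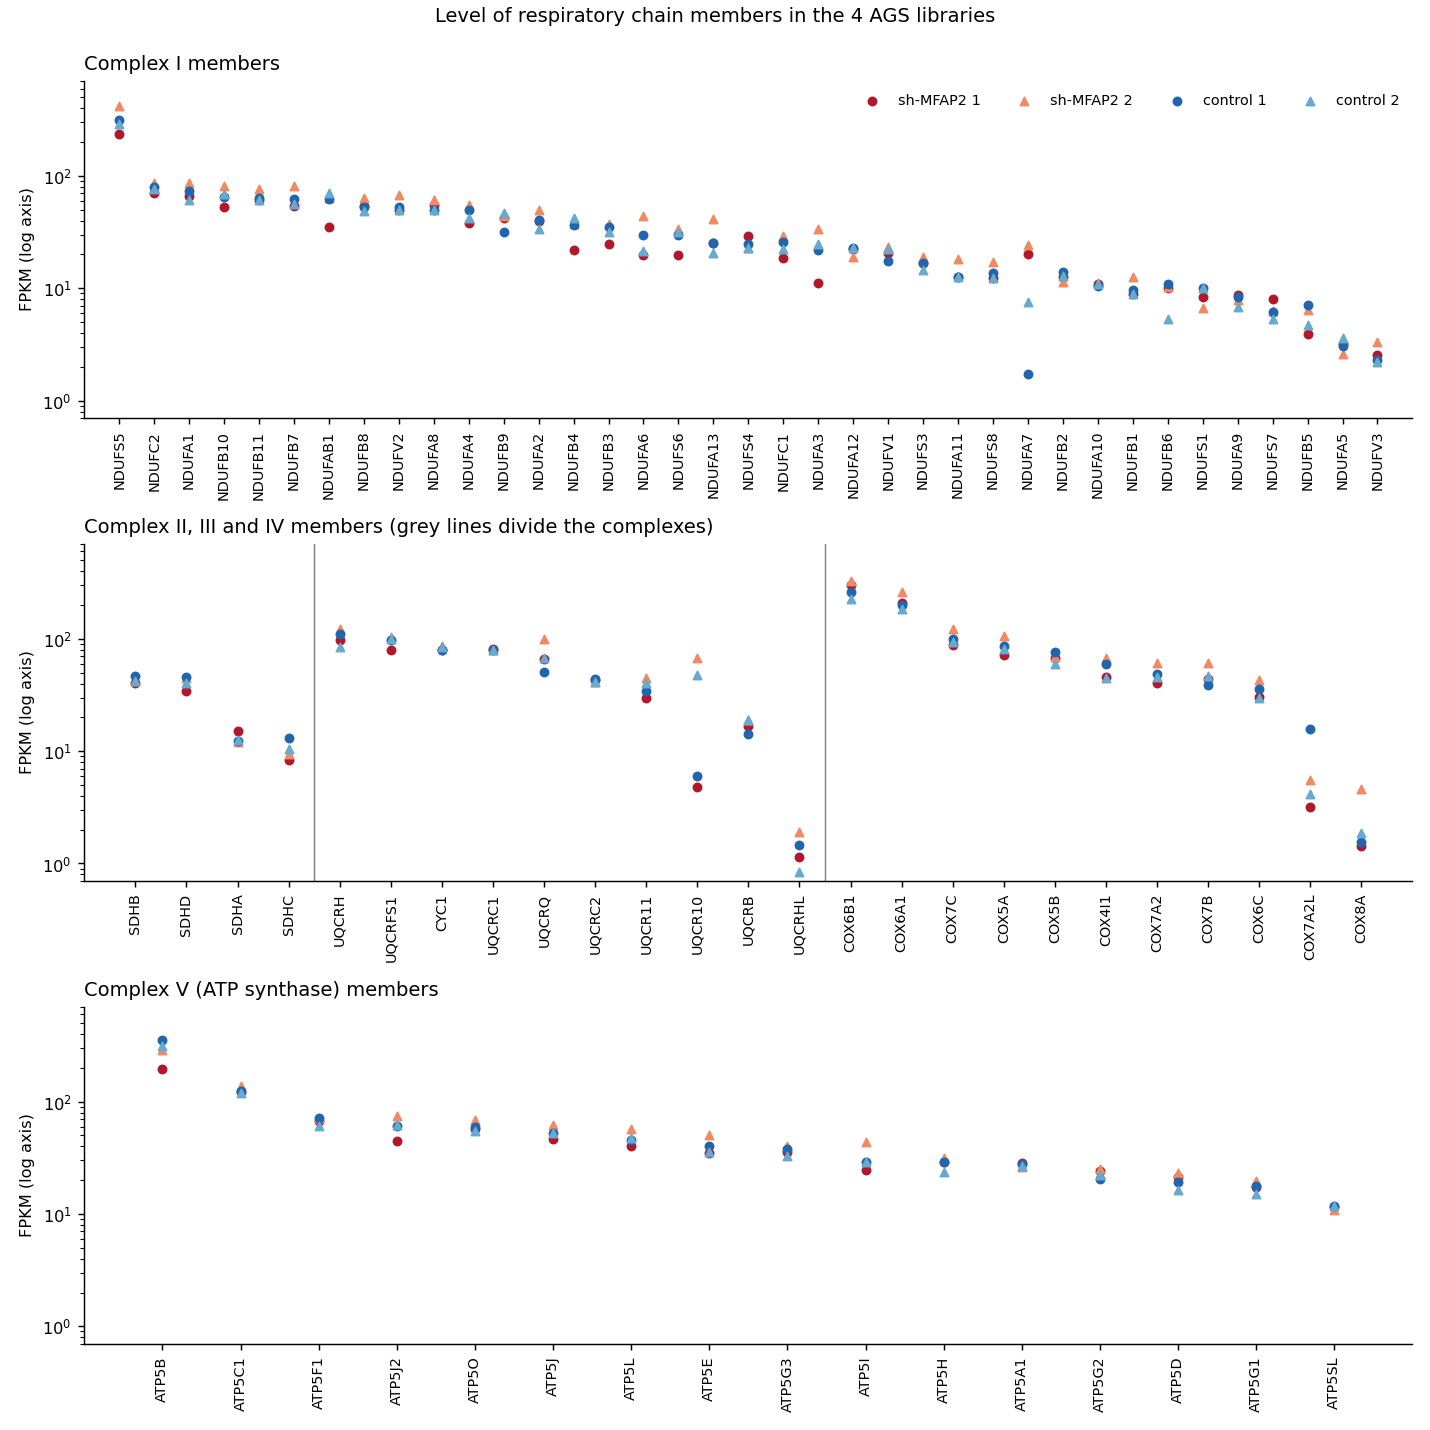
Level of the members tested in FPKM (y axis, log scale) in the 4 libraries, with members sorted by mean within each complex (red and orange, sh-MFAP2 replicates 1 and 2; dark and light blue, control replicates 1 and 2; circles, replicate 1; triangles, replicate 2). Most members keep the 4 libraries close together, while NDUFA7 is low in the controls, UQCR10 is high in both replicates 2 and COX7A2L is high in control replicate 1.

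Complex II, succinate dehydrogenase, links the respiratory chain with the citric acid cycle. Its 4 subunits were the only complex with a negative median (−0.11, beside −0.05 over all genes tested). The library sh-MFAP2 replicate 2 was not the highest for any of these subunits, and was the highest for 23.9% of all genes. With 4 subunits this cannot be told apart from that share. SDHC, a membrane anchor that holds heme, was at 8.29 and 9.47 FPKM under sh-MFAP2, against 13.1 and 10.4 FPKM in the controls. The groups did not overlap, and the log2 fold change was −0.36 ± 0.161 (SE) with an adjusted p of 0.444 in limma. SDHD, the other anchor, with NRF1 and GABP letters in its promoter as printed above, was at 34.6 and 44.8 FPKM against 45.3 and 40.3 FPKM. Its groups overlapped, and its difference of −0.11 was smaller than its standard error of 0.176.

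The catalytic part of complex II showed no common direction. SDHA, the flavoprotein that oxidises succinate, was at 15.3 and 12.2 FPKM under sh-MFAP2, against 12.2 and 12.7 FPKM in the controls. SDHB, which carries the iron-sulfur clusters, was at 40.7 and 42.6 FPKM against 47.0 and 42.5 FPKM. For both the groups overlapped, and the log2 fold changes were 0.12 ± 0.148 and −0.10 ± 0.115.

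Complex III, the cytochrome bc1 complex, has core subunits that were nearly even over the libraries. UQCRC1, a core subunit, was at 81.5 and 78.9 FPKM under sh-MFAP2, against 80.1 and 79.9 FPKM in the controls. CYC1, the cytochrome c1 that passes electrons to cytochrome c, was at 79.1 and 85.6 FPKM against 79.1 and 84.0 FPKM, and UQCRC2 at 42.6 and 41.0 FPKM against 44.0 and 41.3 FPKM. The log2 fold changes of these 3 lay between −0.03 and 0.01, with standard errors of 0.102 to 0.113. UQCRFS1, the Rieske iron-sulfur protein, was at 79.1 and 104.4 FPKM against 98.0 and 100.1 FPKM, with the sh-MFAP2 libraries on either side of the controls.

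The small subunits of complex III varied more. UQCRQ, whose GABP letters are printed above, was at 66.7 and 98.7 FPKM under sh-MFAP2, against 50.9 and 67.7 FPKM in the controls, an overlap with a log2 fold change of 0.46 ± 0.270. UQCRH, the hinge protein next to cytochrome c1 and the highest of the complex, was at 98.5 and 123.6 FPKM against 111.4 and 85.3 FPKM. UQCRHL, a near copy of UQCRH without introns whose reads may be split with it, was at 1.15 and 1.92 FPKM against 1.47 and 0.844 FPKM and had the same order of libraries.

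UQCR10, a small subunit (ENSG00000184076, chromosome 22, 29767369 to 29770413 on the plus strand, GRCh38), was at 4.84 and 67.3 FPKM in replicates 1 and 2 of sh-MFAP2, against 5.96 and 47.8 FPKM in replicates 1 and 2 of the control. Both replicates 1 were low and both replicates 2 were high, so that the group difference was 0.12 with a standard error of 1.65. It ranged from −1.66 to 1.89 when each library was left out. The low values arose in 2 of its 3 transcripts, of which ENST00000330029 was at 2.63, 35.7, 3.51 and 24.9 FPKM and ENST00000616603 at 0, 34.1, 0 and 23.9 FPKM, in the same order of libraries. The third, ENST00000401406, was nearly even at 3.96, 4.73, 4.45 and 4.43 FPKM. TMEM186, a complex I assembly factor that is not a member and was chosen after its values were seen, followed the replicate number too, at 0.266 and 4.05 FPKM under sh-MFAP2, against 0.216 and 4.21 FPKM in the controls.

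**Figure D5:**
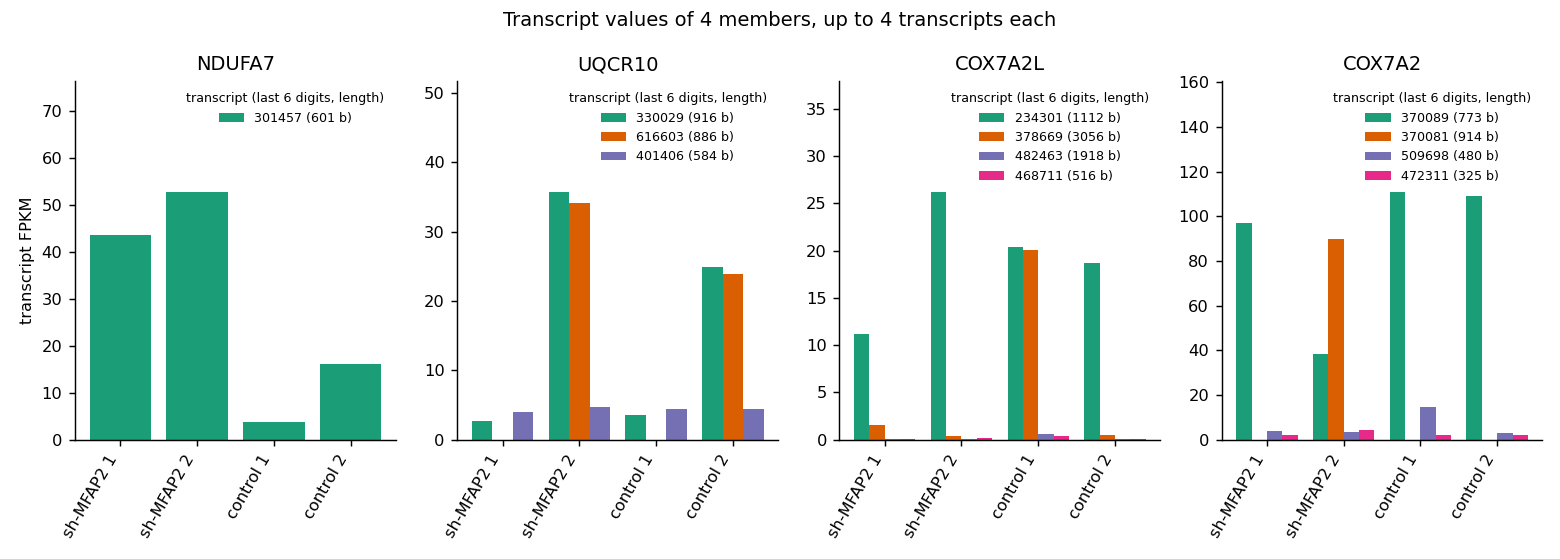
Transcript FPKM (y axis) of NDUFA7, UQCR10, COX7A2L and COX7A2 in the 4 libraries (x axis; bars, up to 4 transcripts of a gene, named by the last 6 digits of their identifiers with their lengths in bases). The NDUFA7 transcript is low in the controls, 2 transcripts of UQCR10 are high in both replicates 2, the long transcript of COX7A2L is high in control replicate 1 at 20.1 FPKM, and the second transcript of COX7A2 appears in sh-MFAP2 replicate 2 at 90.0 FPKM.

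Complex IV, cytochrome c oxidase, is built around a core that mitochondrial DNA encodes, and several of its nuclear subunits exist as paired isoforms for different tissues. In AGS cells the widely expressed form of each pair was detected and its partner was listed at 0 or at most at 0.122 FPKM. An exact 0 in these tables may be a failed estimate, since 8 subunits encoded by mitochondrial DNA are also listed at 0, and it does not show that a gene is silent. COX4I2, COX6A2, COX7B2 and COX8C were listed at 0 in all 4 libraries, while COX6B2 was at 0.032 to 0.122 FPKM, COX7A1 at 0.017 to 0.039 FPKM and NDUFA4L2, a relative of NDUFA4 known from hypoxia, at 0.023 to 0.038 FPKM. Their counterparts COX4I1, COX6A1, COX7B, COX6B1, COX7A2 and NDUFA4 had lowest values of 38.4 FPKM or more. COX8A, the smallest subunit, was an exception with 1.43 and 4.63 FPKM under sh-MFAP2, against 1.57 and 1.88 FPKM in the controls, and at these values about 44 reads or more stood behind each library.

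The highest member of complex IV was COX6B1, which faces the intermembrane space, at 300.5 and 324.7 FPKM under sh-MFAP2, against 263.2 and 227.7 FPKM in the controls. Both sh-MFAP2 values were above both controls, with a log2 fold change of 0.35 ± 0.134 (SE) and an adjusted p of 0.415 in limma, and 0.25 to 0.45 when each library was left out. COX6A1 was at 208.1 and 258.6 FPKM against 198.6 and 182.8 FPKM, also without overlap, with a log2 fold change of 0.28 ± 0.159. COX5A and COX5B, which surround the catalytic core, overlapped between the groups with 0.07 ± 0.226 and 0.02 ± 0.159. COX4I1, the subunit known for the regulation of the enzyme by ATP, was at 46.1 and 67.1 FPKM against 59.9 and 45.0 FPKM, and COX7B at 43.7 and 61.4 FPKM against 38.8 and 46.3 FPKM. For both of them sh-MFAP2 replicate 2 was the highest and the groups overlapped.

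COX7A2L (ENSG00000115944, chromosome 2, 42333546 to 42425088 on the minus strand, GRCh38) is a relative of COX7A2 that joins complexes III and IV into supercomplexes and is not a fixed subunit. It was at 3.16 and 5.59 FPKM under sh-MFAP2, against 15.6 and 4.13 FPKM in the controls. Only control replicate 1 was high, the log2 fold change was −0.82 ± 0.671, and without that library it was 0.03. The transcript ENST00000378669 (3056 bases) was at 1.53, 0.402, 20.1 and 0.545 FPKM, whereas ENST00000234301 (1112 bases) was at 11.2, 26.2, 20.4 and 18.6 FPKM, in the order sh-MFAP2 replicates 1 and 2 and control replicates 1 and 2. All 1112 exonic bases of the short transcript lie within the long one, and both have the same coding bases. The long transcript and the gene value were both highest in control replicate 1, while among the other 3 libraries the gene value had the order of the short transcript.

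COX7A2 gave a case of the same kind within sh-MFAP2. The gene was at 40.6 and 60.3 FPKM under sh-MFAP2, against 49.0 and 45.3 FPKM in the controls, whereas its transcript ENST00000370081 was at 90.0 FPKM in sh-MFAP2 replicate 2 and at 0 to 0.0325 FPKM in the other 3 libraries. Of 171 member transcripts that reached 5 FPKM in some library, 21 were under 10% of their highest value in another library (12.3%, in 17 genes), and the share over all genes was 11.2%. At the gene level this held for NDUFA7 and UQCR10 (2.06% of all genes tested).

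Complex V, ATP synthase, had 16 members tested, with means of 11.5 to 287.5 FPKM. ATP5B, the catalytic beta subunit, was the highest, at 194.5 and 288.1 FPKM under sh-MFAP2, against 355.1 and 312.4 FPKM in the controls. The groups did not overlap, the sh-MFAP2 values being the lower ones, with a log2 fold change of −0.49 ± 0.239 (SE) and an adjusted p of 0.474 in limma. ATP5A1, the alpha subunit that alternates with beta in the catalytic ring, was nearly even at 28.5 and 26.0 FPKM against 28.1 and 26.6 FPKM. ATP5D, the delta subunit of the central stalk, was at 21.3 and 23.1 FPKM against 19.2 and 16.4 FPKM, higher in sh-MFAP2 without overlap, with 0.31 ± 0.131.

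The 3 genes for subunit c, the proton-carrying ring, encode the same mature protein and had small positive differences. ATP5G2 was at 24.0 and 25.3 FPKM under sh-MFAP2, against 20.6 and 22.1 FPKM in the controls, without overlap. Its highest transcript, ENST00000602871, did overlap, at 51.9 and 54.3 FPKM under sh-MFAP2, against 51.0 and 57.6 FPKM in the controls. ATP5G1 was at 17.3 and 19.6 FPKM against 17.6 and 15.1 FPKM, and ATP5G3 at 35.8 and 40.0 FPKM against 37.7 and 33.0 FPKM. For these both groups overlapped, and the log2 fold changes of the 3 genes were 0.16, 0.20 and 0.10 for ATP5G1, ATP5G2 and ATP5G3, none past the test.

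The rule also took in 9 rows that are not fixed subunits. The antisense genes NDUFB2-AS1 and NDUFV2-AS1, the readthrough genes NDUFC2-KCTD14 and ATP5J2-PTCD1, ATP5S and ATP5L2 did not pass 1 FPKM, and ATP5L2 was listed at 0. Those that passed were UQCRHL, COX7A2L and ATP5SL, a former ATP5 name for a complex I assembly factor. ATP5SL was at 11.5 and 10.9 FPKM under sh-MFAP2, against 11.7 and 11.9 FPKM in the controls, lower without overlap, with a log2 fold change of −0.07 ± 0.101. Another listed gene above 1 FPKM overlapped 31 of the 92 rows, in 26 cases on the opposite strand.

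Genes around the respiratory chain were taken from lists by role. In complex IV assembly, 21 genes were tested and 1 was called, COA3, which binds newly made COX1 and was at 0.185 and 0.112 FPKM under sh-MFAP2, against 29.3 and 25.6 FPKM in the controls. Its adjusted p in limma was 0.0104, and it was the sole call in all the lists, although no gene was called once any 1 of the 4 libraries was left out. In addition 3 genes were higher and 2 were lower at an unadjusted p under 0.05 in limma, and the median of the list was 0.03. Of all genes tested, 0.273% were called, and 3.89% were higher and 8.41% lower at that unadjusted p. COA6, a copper factor of complex IV, was at 25.4 and 26.9 FPKM under sh-MFAP2, against 14.9 and 12.3 FPKM in the controls, with an adjusted p of 0.256.

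Of 6 genes of ATP synthase assembly and inhibition, 0 were called, 2 were higher and 0 lower at an unadjusted p under 0.05 (3.89% and 8.41% of all genes), and the median log2 fold change was 0.007. ATPAF2, a chaperone for the alpha subunit, was at 4.64 and 4.88 FPKM under sh-MFAP2, against 2.74 and 2.89 FPKM in the controls, with a log2 fold change of 0.59 ± 0.101 and an adjusted p of 0.283 in limma. FMC1 was at 2.75 and 4.23 FPKM against 1.27 and 1.97 FPKM. ATPIF1, the inhibitor of the enzyme, was at 28.2 and 35.6 FPKM against 37.2 and 42.7 FPKM, lower without overlap but with a log2 fold change of −0.32 ± 0.171 and an adjusted p of 0.497 in limma. Among 16 complex I assembly factors, 8 factors for complexes II and III, 7 carriers and enzymes that feed ubiquinone or cytochrome c, and 14 citric acid cycle genes, 0 were called and 0 had an unadjusted p under 0.05, with median log2 fold changes of 0.08, −0.01, 0.03 and −0.05.

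Of 14 regulators of mitochondrial biogenesis, 12 were tested and 0 were called, with 3 above both controls, 5 below both and a median of −0.13, where 17.5% and 31.4% of all genes were above and below both. Those above were PPRC1, a coactivator of the PGC-1 family, at 10.3 and 10.0 FPKM under sh-MFAP2, against 8.29 and 9.17 FPKM in the controls, and also ESRRA and POLRMT, with log2 fold changes of 0.20, 0.16 and 0.37. NRF1, whose letters stand in the SDHA and SDHD promoters printed above, was at 2.73 and 3.04 FPKM under sh-MFAP2, against 3.81 and 3.99 FPKM in the controls, and its log2 fold change of −0.34 ± 0.106 had an unadjusted p of 0.0372 and an adjusted p of 0.394 in limma. GABPA was at 7.20 and 9.13 FPKM against 10.7 and 9.59 FPKM, and YY1 at 17.9 and 19.0 FPKM against 20.1 and 21.7 FPKM. TFAM, which packs mitochondrial DNA and helps to start its transcription, was at 11.5 and 6.18 FPKM against 15.0 and 16.7 FPKM, with an adjusted p of 0.415 in limma. For each of these 4 the sh-MFAP2 values were the lower ones without overlap, but none was called, and the same order held for GABPB1.

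Members with and without the letters for these factors lay close together. The median log2 fold change was 0.10 for the 15 members with NRF1 letters and 0.14 for the 47 without, 0.16 for the 19 with GABP letters and 0.11 for the 43 without, and 0.11 for the 11 with YY1 letters and 0.13 for the 51 without. ATP5J, with GABP and YY1 letters, was at 46.7 and 62.2 FPKM under sh-MFAP2, against 52.6 and 53.0 FPKM in the controls, so that its groups overlapped.

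The 13 subunits that mitochondrial DNA encodes could not be set beside the nuclear ones. Of these, 8 were listed at 0 in all 4 libraries, and 3 had a mean of 1 FPKM or more. MT-ND4 was listed at 11.2 FPKM in sh-MFAP2 replicate 1 and at 0 in the other libraries, and MT-CYB at 35.9 FPKM in sh-MFAP2 replicate 2 and 24.6 FPKM in control replicate 1 and at about 0 in the others. These transcripts are abundant in cells in general, and no fold change is given from such values. Markers of other cells were low, with summed levels of 5.46 and 5.25 FPKM under sh-MFAP2, against 12.3 and 12.2 FPKM in the controls over 11 genes. COL1A1 and CD68 passed 1 FPKM, and both were lower in sh-MFAP2 at an unadjusted p under 0.05 without a call, while HBB was listed at 0 in all libraries and the other 8 had means under 1 FPKM. The part of these markers in the results was not tested.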

How the data were processed

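RNA sequencing of AGS cells gave 4 libraries (2 sh-MFAP2, 2 control), grouped by their labels. The authors deposited gene and transcript tables, taken here as FPKM from the values, since between 61.0% and 62.5% of the low values in a library (0.2 to 8 reads, single-transcript genes over 1000 bases) were within 0.05 of a whole number of reads over length at the best-fitting depth, where evenly spread values would give 10%. The submitters' processing notes name hg38, and the aligner and the program that made the values are not given in the sources used here. Coordinates, strands and exons came from GENCODE 29 (43715 of 47251 identifiers found, 92 of 92 members). The 9873 genes averaging 1 FPKM or more were tested on log2(FPKM + 1), pseudocount 1, with limma 3.58.1 (lmFit, eBayes with trend, two-sided) in R 4.3.3, with Benjamini-Hochberg adjustment over all of them. A fold change on this scale understates that of low genes. A DEG was a gene below 0.01 in p and below 0.05 in adjusted p, the thresholds of the study. An exact permutation test of 2 libraries against 2 cannot give a p below 0.333. On simulated data with independent noise for each gene and library, the fit called 130 of 200 genes given a log2 change of 2, and 1 gene given none. The simulation held no shift of a library and no trend on length, so these counts need not hold for the real libraries. The members, the lists and the rule for naming genes were chosen with earlier results of these data known. The rule named the 3 members of each complex with the largest absolute log2 fold change, the highest of each complex, members with an unadjusted p under 0.05, complex II, core subunits, paired isoforms, rows that are not subunits, and members under 10% of their highest value in some library. Alternatives were other filters, pseudocount, scaling, no trend, a replicate block, transcript sums, a length correction, an adjusted p under 0.1 and leaving out each library. With NDUFA4 under complex IV and without the rows that are not subunits, an alternative added after seeing the data, the medians were computed again. The values of 1 member and 1 marker are not reported here, and that member is left out of the plots that name genes. The depth is inferred, so no interval is given for single values. Python 3.11.15, pandas 2.3.3, numpy 2.4.6 and matplotlib 3.10.9 were used.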

Additional observations from a re-analysis of the deposited data

How the results depend on the processing

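In the alternatives run, 0 members were called in either direction, and the smallest adjusted p of a named member was 0.161 over all of them and over the fits without 1 library. The count of all genes called was less steady. Without a filter there were 6, above a mean of 5 FPKM 9, and with the sole criterion of an adjusted p under 0.1 there were 46. The replicate block gave 0, while 722 genes had an unadjusted p under 0.05 in limma. It was 0 when any 1 library was left out, where fewer samples were fitted and the lone library of a group was assumed to vary like the others. Deviations of libraries with the same replicate number had a correlation of −0.0572 over 9873 genes. Such a correlation cannot show whether these libraries share a culture or day, which the labels do not say. The block left the median of the members at 0.11. Over the alternatives that kept all 4 libraries it ranged from 0.04 with the length trend removed to 0.18 with median of ratios. The latter is above the pooled SD of the library medians, 0.160, of the values as deposited. Members at an unadjusted p under 0.05 numbered 1 lower under quantile normalization and 3 higher under scaling by median of ratios, and between 1 and 14 higher and between 0 and 8 lower when a library was left out. The most members higher came without sh-MFAP2 replicate 1, and the most lower without sh-MFAP2 replicate 2. In both fits more of all genes passed that p than with all 4 libraries, so these counts alone do not set the members apart. When a library was left out, the medians by complex ranged from −0.0325 to 0.268 in complex I and −0.213 to −0.0299 in complex II. They ranged from −0.0119 to 0.231 in complex III, −0.129 to 0.363 in complex IV and −0.00662 to 0.241 in complex V. The lowest values of complexes I, II, IV and V came without sh-MFAP2 replicate 2. Of 40 named members with a log2 fold change, 20 changed sign when a library was left out, namely ATP5A1 from −0.068 to 0.061, COX4I1 from −0.17 to 0.36, COX5A from −0.21 to 0.34, COX5B from −0.15 to 0.19, COX7A2 from −0.21 to 0.35, COX7A2L from −1.67 to 0.0303, COX8A from −0.17 to 1.05, CYC1 from −0.043 to 0.071, NDUFA4 from −0.26 to 0.26, NDUFS5 from −0.36 to 0.48, NDUFS8 from −0.072 to 0.38, NDUFV1 from −0.019 to 0.32, NDUFV2 from −0.033 to 0.38, SDHA from −0.026 to 0.28, SDHD from −0.30 to 0.066, UQCR10 from −1.66 to 1.89, UQCRC1 from −0.0199 to 0.027, UQCRC2 from −0.074 to 0.018, UQCRFS1 from −0.32 to 0.075, UQCRH from −0.014 to 0.37.

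Under the other alternatives 11 of the 40 changed sign, and the cause was not tested. ATP5A1 became 0.0206 with quantile normalization, 0.0661 with median of ratios and 0.162 with the length trend removed. NDUFS5 became −0.0425 with quantile normalization, and UQCRC2 became 0.0423 with median of ratios. Sums of transcripts gave −0.14 for ATP5G3, −0.0295 for COX7A2, −0.00981 for CYC1 and −0.00768 for NDUFA4. Removal of the length trend gave −0.0399 for COX5A, −0.0850 for COX5B, −0.00422 for COX7A2, −0.0572 for CYC1, −0.127 for NDUFS5, −0.0266 for UQCR10, −0.00497 for UQCRC1 and 0.0357 for UQCRC2. With NDUFA4 under complex IV and subunits only, chosen after seeing the data, the medians moved by less than the spread between libraries. The simulated check was run at a log2 change of 2 alone, so how many changes of smaller size this design would call was not tested.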
